A study of Mus musculus with 14 samples.

Results

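Nodal, Lefty1, Lefty2, Tdgf1, Gdf3, Fgf5, Pou3f1, Foxd3 and Otx2 are genes of the Nodal pathway and of the primitive ectoderm, the cell layer that pluripotent cells pass through before they form germ layers. They were taken as a list of symbols, chosen with earlier results of these data known, and are 9 of the 18194 genes that the arrays represented. All probe sets with these symbols, 13 in all, were read on each of 14 arrays. Nodal, Gdf3, Fgf5 and Pou3f1 have a pair of probe sets each, and the other genes have 1. All 9 genes passed the filter on low signal, and they would also have passed it on the 6 ESC arrays or on the 8 EB arrays alone.

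The arrays measured RNA of mouse embryonic stem cells (ESC), which are undifferentiated, and of embryoid bodies (EB), clumps of mixed tissues that form when stem cells are left to differentiate. Lines were either wild type (WT) or TKO, a name without expansion in the labels, which is read here, from the series title and common usage, as loss of all genes of the Rb family, Rb1, Rbl1 and Rbl2, whose products restrain E2F factors and cell cycle entry. The WT lines B21, J1 and R1 gave 1 ESC array and 1 EB array each, so 3 per stage. TKO ESC had 3 arrays, from lines 7-4-1, Dutch and Ta1-12, and TKO EB had 5, from the same lines and from 2-55-2 and 14-14-4. Each line contributed 1 array per stage, so the spread within a group is the spread between lines. The sources used here do not say how the alleles were made, how the lines were derived, or how long EB were cultured. By its title, the study concerned cell cycle exit and terminal differentiation when the Rb genes are absent.

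Nodal is a secreted ligand of the TGF-beta family that signals through activin receptors to SMAD2 and SMAD3. The receptor complex needs the membrane-bound co-receptor that Tdgf1 (Cripto) encodes, and FOXH1 brings the SMADs to target genes. Nodal itself, Lefty1 and Lefty2 are among those targets, and the LEFTY proteins are secreted inhibitors of the ligand, so the pathway feeds back on itself. Gdf3 encodes a related ligand that also uses this co-receptor. Fgf5 is the classical marker of the primitive ectoderm, while Otx2, Pou3f1 (Oct6) and Foxd3 encode transcription factors of this stage, which are also used later in neural, anterior or neural crest cells.

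Markers fitted the labelled stages in most but not all arrays. Pou5f1, which encodes the pluripotency factor OCT4, had intensities of 9879.8 to 12950.1 on the 6 ESC arrays and of 32.8 to 55.2 in WT EB. In TKO EB it reached 7410.3 in line Dutch, 6132.8 in 14-14-4, 1542.2 in 2-55-2, 146.8 in 7-4-1 and 17.1 in Ta1-12. Markers of visceral endoderm and fibroblasts were present in all EB, and the summed signal of 6 fibroblast genes was lowest in TKO EB Dutch, at 24368.4, while the WT EB arrays had 70846.9 to 89117.5. The check of the targeted genes went against the label of 1 line. Rbl1 intensity was 24.5 in TKO ESC 7-4-1 and 15.9 to 38.3 in TKO EB of 2-55-2, 14-14-4 and 7-4-1, but 492.5 and 1095.9 in the ESC and EB arrays labelled TKO Ta1-12, against 355.6 to 1089.6 in WT. TKO Dutch had 250.3 in ESC and 377.1 in EB, each below the WT arrays of its stage (355.6 and 493 at the lowest), but its EB was within the WT EB range by a second probe set (135.5, against 114 to 174.2). Rb1 and Rbl2 showed no loss of signal common to the TKO lines. Rb1 was at 300.5 to 912.8 in TKO EB and at 407.1 to 1018.4 in WT EB, and Rbl2 was at 658.5 to 843.2 in TKO ESC and at 411.1 to 661.3 in WT ESC. In EB, Rbl2 was at 296.8 to 1098.7 in TKO and at 722.8 to 1726.9 in WT. Whether these probe sets lie in deleted parts is not known here, and the clear drop of Rbl1 was limited to 7-4-1, 2-55-2 and 14-14-4. Comparisons with TKO arrays are therefore also given without line Ta1-12.

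The sequence just before the start of transcription is shown for Nodal, Tdgf1 and Otx2, because Nodal and Tdgf1 moved most alike among the genes with a window at hand, and because Tdgf1 and Otx2 carry a match to the FOXH1 motif. Each is 250 bases long, 5′ to 3′ on the gene's strand, from RefSeq for assembly GRCm38.p6, with motif matches in capitals. The windows lie at chr10:61417722-61417971 on the plus strand for Nodal, at chr9:110946159-110946408 on the minus strand for Tdgf1 and at chr14:48667645-48667894 on the minus strand for the most upstream of 4 Otx2 starts.
Nodal: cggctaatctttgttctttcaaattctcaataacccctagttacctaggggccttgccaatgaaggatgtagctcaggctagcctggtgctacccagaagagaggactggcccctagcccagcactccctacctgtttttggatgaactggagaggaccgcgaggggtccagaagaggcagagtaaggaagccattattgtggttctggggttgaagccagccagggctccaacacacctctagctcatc
Tdgf1: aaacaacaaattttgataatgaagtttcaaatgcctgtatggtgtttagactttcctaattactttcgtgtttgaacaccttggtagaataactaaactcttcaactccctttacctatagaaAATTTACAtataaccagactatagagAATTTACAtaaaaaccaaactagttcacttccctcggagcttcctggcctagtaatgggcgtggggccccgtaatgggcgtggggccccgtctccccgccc
Otx2: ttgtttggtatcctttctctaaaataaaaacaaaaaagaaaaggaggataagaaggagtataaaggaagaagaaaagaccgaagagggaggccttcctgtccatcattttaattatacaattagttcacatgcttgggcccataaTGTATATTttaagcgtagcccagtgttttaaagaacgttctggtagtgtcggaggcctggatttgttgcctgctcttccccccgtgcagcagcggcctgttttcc

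RefSeq windows, which run on to 50 bases past the start, were at hand for 5 of the 9 genes, namely Nodal, Tdgf1, Otx2, Fgf5 and Foxd3. They were searched on both strands for the octamer ATTTGCAT, the FOXH1 motif TGTNNATT, the SMAD motif CAGACA and the E2F motifs TTTCGCGC and TTTGGCGC. No match of one motif overlapped a match of another. Tdgf1 held 2 FOXH1 matches, whose first bases lie at -127 and -101 from the start, both reading AATTTACA on the gene's strand. Otx2 held 1, reading TGTATATT at -105. No window of the 5 genes held the octamer, the SMAD motif or an E2F motif. Among all 32851 mouse windows of this length, 12.2% held the FOXH1 motif, 21% the SMAD motif, 1.74% the octamer and 0.813% either E2F motif. The Fgf5 and Foxd3 windows were rich in GC, at 68.3% with 29 CpG and 65.7% with 25 CpG, against a median of 52.7% and 7 CpG over all windows. The Tdgf1 window was at 41.7%, that of Nodal at 54.0%, and the 4 of Otx2 at 41.7%, 47.7%, 51.0% and 53.7%, the most upstream being the lowest.

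On differentiation of WT cells, all 9 genes fell. The ligands came down to a small share of their ESC signal. Nodal intensity in undifferentiated WT cells was 2023.4 in B21, 2542.2 in J1 and 2368.6 in R1, and the EB of these lines had 27.4, 28.0 and 54.0. Every EB array lay far below every ESC array, and the EB of B21 and J1 were under 32, the intensity to which lower values were raised before taking log2. The log2 change was -5.92 ± 1.17 (SE, n = 3 against 3, limma, Benjamini-Hochberg adjusted p = 0.00208). Because of that floor, changes of genes near it are understated. Gdf3 went from 2151.2, 1829.1 and 1702.4 to 138.9, 151.5 and 174.6, a log2 change of -3.61 ± 0.70 (limma, adjusted p = 0.00191). Its lines were close to each other at both stages. Over all 14365 genes tested, 43.6% passed this test in WT cells, 26.2% as higher and 17.4% as lower in EB, which is the background to the 9 of 9 here. No stage overlapped the other for any of the 9, as for 60.2% of all genes, 25.2% with EB lower.

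Tdgf1, the co-receptor, was bright in WT ESC, at 13209.9, 9346.1 and 9835.4, and stood at 296.3, 52.4 and 164.0 in EB. This was a log2 change of -6.29 ± 1.67 (limma, adjusted p = 0.00968), with no overlap between stages. RefSeq lists pseudogenes of Tdgf1, and the probe sequences were not used here, so signal from those copies cannot be separated. Lefty2 fell from 2212.4, 3855.9 and 1573.2 to 37.0, 19.9 and 40.4 (log2 change -6.03 ± 1.32, limma, adjusted p = 0.00349). Lefty1 fell from 1395.8, 6035.8 and 2667.2 to 261.0, 147.5 and 104.6 (-4.15 ± 0.86, limma, adjusted p = 0.0027). Lefty1 thus kept signal well above the floor in WT EB where Lefty2 did not. The 2 genes are near-identical paralogs, and crossed signal between their probe sets was not tested.

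The transcription factors fell as well. Otx2 went from 3220.2, 2750.9 and 2189.0 in WT ESC to 73.5, 513.8 and 175.0 in EB (log2 change -3.84 ± 1.25, limma, adjusted p = 0.0258). Pou3f1 went from 515.2, 1523.6 and 2434.7 to 60.8, 101.2 and 86.7 (-3.94 ± 0.56, limma, adjusted p = 0.000377), and it had the smallest adjusted p of the 9. Foxd3 was dim, at 318.2, 114.2 and 128.1 in ESC and 20.9, 88.9 and 19.8 in EB (-1.89 ± 0.59, limma, adjusted p = 0.0205). In line J1 its EB kept 77.8% of the ESC signal, while the EB of B21 and R1 were under the floor. Fgf5 signal was 54.5, 286.3 and 493.1 in ESC and 13.2, 24.4 and 36.0 in EB (-2.57 ± 0.76, limma, adjusted p = 0.0161). The calls of Fgf5, Foxd3 and Otx2 depended on single arrays. Fgf5 lost its call without WT ESC J1 (adjusted p = 0.0582) or R1 (0.0704), Foxd3 without WT ESC B21 (0.0917), WT EB B21 (0.0773) or WT EB R1 (0.0679), and Otx2 without WT ESC B21 (0.0695), WT ESC J1 (0.0613), WT EB B21 (0.1) or WT EB R1 (0.0575), all in limma. With line as a fixed block Foxd3 also lost it, at an adjusted p of 0.0566 in limma, in a fit where 37.4% of all genes passed. With line as a random block it kept its call (limma, adjusted p = 0.019).

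The second probe sets had the same direction in WT cells, with smaller sizes. Nodal had a log2 change of -5.58 ± 1.00 by its second probe set (limma over all probe sets that passed, adjusted p = 0.00129), and Pou3f1 one of -3.24 ± 0.56 (adjusted p = 0.0011). The second probe set of Gdf3 changed by -1.25 ± 0.30 (limma, adjusted p = 0.0063) and that of Fgf5 by -1.41 ± 0.33 (limma, adjusted p = 0.00567).

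**Figure D1:**
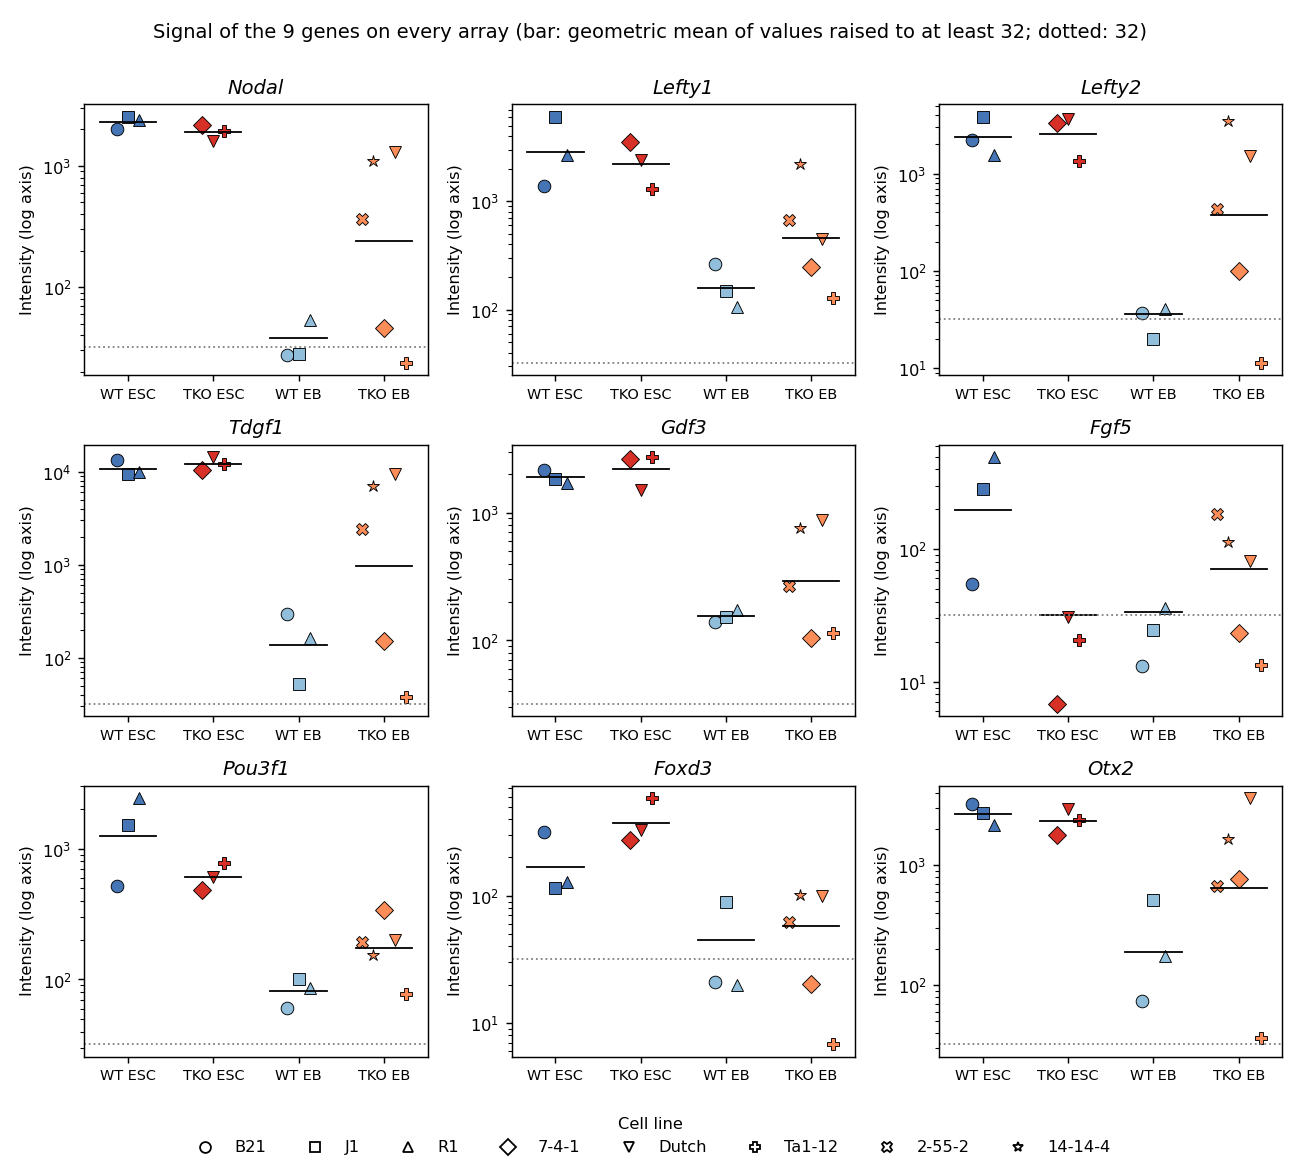
Intensity on a log axis for each of the 9 genes on all 14 arrays, by group, with 1 symbol per cell line. Bars are geometric means of values raised to at least 32, and the dotted line marks 32. The 3 WT EB arrays lie below the 3 WT ESC arrays for every gene, while the 5 TKO EB arrays spread widely for most genes, with Nodal from 23.6 to 1294.5.

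In TKO cells, 5 of the 9 genes fell on differentiation, and the EB lines differed widely from each other. Nodal was at 2168.6, 1616.1 and 1921.1 in TKO ESC 7-4-1, Dutch and Ta1-12. In TKO EB it was 365.7 in 2-55-2, 1098.1 in 14-14-4, 46.1 in 7-4-1, 1294.5 in Dutch and 23.6 in Ta1-12. All EB arrays lay below the ESC arrays, but Dutch kept 80.1% of its own ESC signal where 7-4-1 kept 2.13% and Ta1-12 was under the floor. The log2 change was -2.99 ± 1.04 (n = 5 against 3, limma, adjusted p = 0.0405). Over all genes tested, 35.7% passed in this comparison, 20.8% as higher and 14.9% as lower. The stages did not overlap for Nodal, Tdgf1, Gdf3, Pou3f1 and Foxd3, as for 35.7% of all genes, 14.6% with EB lower.

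Gdf3 also fell in TKO cells, from 2644.7, 1498.4 and 2708.3 to 265.9, 763.5, 104.8, 870.6 and 113.4 in EB of 2-55-2, 14-14-4, 7-4-1, Dutch and Ta1-12 (log2 change -2.92 ± 0.63, limma, adjusted p = 0.00371). Its lines ranked much as for Nodal by this probe set. The second probe set of Gdf3 changed by -0.90 ± 0.27 (limma over all probe sets that passed, adjusted p = 0.021). By that one the EB lines ran 14-14-4, Dutch, 7-4-1, 2-55-2 and Ta1-12 from high to low. Lefty1 fell by 2.27 ± 0.77 on the log2 scale (limma, adjusted p = 0.0359) with overlapping groups, since EB 14-14-4 stood at 2222.3 and ESC Ta1-12 at 1299.5. Its other EB values were 677.8 in 2-55-2, 247.8 in 7-4-1, 443.6 in Dutch and 127.0 in Ta1-12, against 3559.3 and 2395.0 in ESC 7-4-1 and Dutch. Lefty1 was thus lower in EB Dutch than in 2-55-2 and 14-14-4, although Dutch ranked highest for Nodal, Tdgf1 and the brighter Gdf3 probe set.

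Tdgf1 and Lefty2 did not pass in TKO cells. Tdgf1 was at 10477.6, 14241.9 and 12159.3 in ESC and at 2434.1, 6962.1, 149.3, 9354.7 and 37.7 in EB, in the same order of lines (log2 change -3.64 ± 1.49, limma, adjusted p = 0.0743). The range among EB arrays was wider than for any other of the 9 genes, and the highest EB array came close to the lowest ESC array. Lefty2 was at 3293.0, 3679.1 and 1359.1 in ESC and at 431.4, 3476.4, 99.8, 1519.1 and 11.3 in EB (-2.77 ± 1.18, limma, adjusted p = 0.0838). EB of 14-14-4 and Dutch lay within the range of the ESC arrays. On the lines measured at both stages, with line as a block, Lefty2 changed by -3.91 (limma, adjusted p = 0.0209) and Tdgf1 by -5.03 (limma, adjusted p = 0.0379), so both passed there, while Pou3f1 did not (adjusted p = 0.0588). That fit, with line as a fixed block, leaves out 2-55-2 and 14-14-4, and 22% of all genes passed in it. With line as a random block on all arrays, Lefty2 and Tdgf1 did not pass (limma, adjusted p = 0.0751 and 0.0671). Pou3f1 did pass there (limma, adjusted p = 0.0125).

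Among the transcription factors, Foxd3 went from 274.1, 328.2 and 586.9 in TKO ESC to 62.2, 101.7, 20.2, 99.5 and 6.8 in EB (log2 change -2.70 ± 0.53, limma, adjusted p = 0.00218). All EB arrays were lower than all ESC arrays. Pou3f1 went from 484.5, 608.6 and 770.8 to 194.7, 155.0, 338.7, 199.7 and 77.1 (-1.81 ± 0.50, limma, adjusted p = 0.0136). Here line 7-4-1, which was near the bottom for Nodal, Tdgf1 and Lefty2, was the highest EB array and kept 69.9% of its ESC signal. By the second Pou3f1 probe set 7-4-1 was again the highest but kept 29%, and the other TKO EB arrays were under the floor. That probe set changed by -1.994 ± 0.505 (limma over all probe sets that passed, adjusted p = 0.00901). Otx2 was 1774.4, 2925.0 and 2411.2 in ESC and 674.2, 1645.5, 765.3, 3651.4 and 36.2 in EB (-1.85 ± 1.12, limma, adjusted p = 0.217). EB Dutch was above every TKO ESC array, at 125% of its own ESC signal, and EB Ta1-12 was at 1.5% of its own.

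Fgf5 had the opposite sign in TKO cells. Its intensity was 6.8, 30.5 and 20.7 in TKO ESC, all under the floor, and 185.2 in EB 2-55-2, 112.7 in 14-14-4, 23.4 in 7-4-1, 80.9 in Dutch and 13.4 in Ta1-12. The lines 2-55-2, 14-14-4 and Dutch were therefore above all TKO ESC arrays and the other pair was not. The log2 change of 1.14 ± 0.68 did not pass (limma, adjusted p = 0.208), and as a difference from a group at the floor it is understated. The second probe set gave 41.7, 35.6 and 50.9 in ESC. In EB it was again highest in 2-55-2, 14-14-4 and Dutch, at 68.8, 58.2 and 53.2, and at most 32.7 in the other pair, with a log2 change of 0.14 ± 0.30 (limma, adjusted p = 0.731).

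The TKO calls of Nodal, Lefty1 and Pou3f1 did not hold without line Ta1-12, whose ESC and EB arrays went against their label for Rbl1. Without it, Nodal changed by -2.25 (limma, adjusted p = 0.142), Lefty1 by -2.20 (adjusted p = 0.069) and Pou3f1 by -1.35 (adjusted p = 0.0906), and only Gdf3 (-2.43, adjusted p = 0.0307) and Foxd3 (-2.16, adjusted p = 0.0266) remained of the 5. In that fit 21.4% of all genes passed. Nodal also lost its call in 11 of the 14 fits that left out 1 array and Lefty1 in 4, while Gdf3 and Foxd3 kept theirs in all 14.

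**Figure D2:**
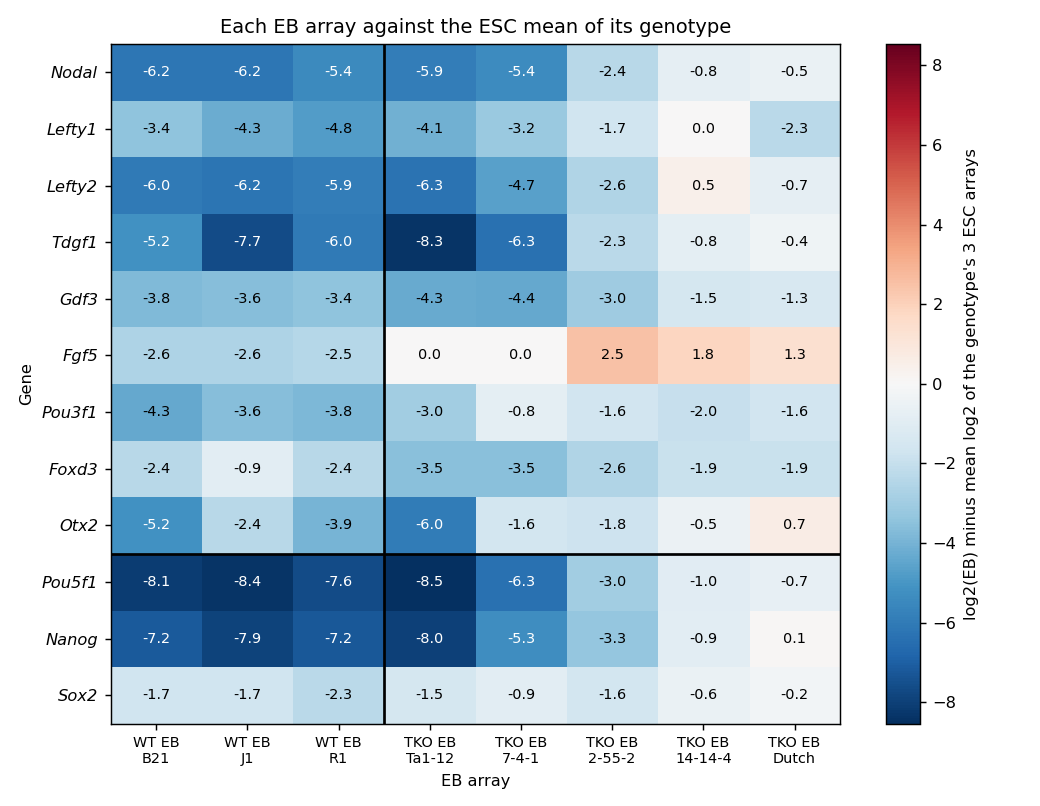
The log2 intensity of each EB array minus the mean log2 intensity of its genotype's 3 ESC arrays, for the 9 genes and for Pou5f1, Nanog and Sox2, with blue for lower and red for higher. TKO EB columns are ordered by Pou5f1 for display. Nodal, Lefty2 and Tdgf1 are near the ESC mean in 14-14-4 and Dutch and far below it in Ta1-12 and 7-4-1, while Pou3f1 is nearest to it in 7-4-1.

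The spread of the 9 genes between TKO EB lines was wide relative to other genes. The SD of log2 intensity was 3.53 for Tdgf1, 2.77 for Lefty2, 2.52 for Otx2 and 2.51 for Nodal, and 1.56 for the median of the 9, against a median of 0.42 over all genes tested. Of all genes, 99.4% had a smaller SD than Nodal in this group and 78.7% a smaller one than Pou3f1. In WT EB the median of the 9 was 0.44 against 0.28 over all genes. Pluripotency genes varied along with several of the 9. From the highest to the lowest EB line, Nodal, Tdgf1, Pou5f1 and Nanog each ran Dutch, 14-14-4, 2-55-2, 7-4-1 and Ta1-12. The summed intensity of 10 pluripotency genes was 72789.1, 58714.5, 18044.7, 10765.5 and 10385.6 in these lines. It was 7079.9 to 12213.2 in WT EB, and the ESC arrays had 70270.8 to 99126.8. In Ta1-12 the sum was mostly Klf4 (5018.5) and Sox2 (4484.6), and so it was in WT EB R1 (8110.6 and 2377.8). Of the 10 genes, 4 were above the 40th percentile of the array in Ta1-12 and 8 in 7-4-1. Fewer cells that express a gene and less RNA per cell cannot be told apart in such bulk RNA, and the part of remaining undifferentiated cells in these results was not tested.

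Line 7-4-1 had a profile of its own among the TKO EB. It had little Nodal, Tdgf1 and Foxd3 signal but the most Pou3f1, and its Otx2, at 765.3, lay above that of 2-55-2 and Ta1-12. The summed signal of 6 anterior neural genes was also highest there, at 1167.9. The lowest TKO EB array had 357.3, and the WT EB arrays had 419.3 to 832.5. In 7-4-1 the sum rested on Pax6 (462.2) and Lhx2 (448.4), named after their values were seen, as are the genes of the next sentence, and Hesx1 was under the floor. The summed signal of 6 neural crest markers was highest in this line too, at 6140.3, with Snai2 at 3865.1, Tfap2b at 507.1, Pax3 at 341.9 and Tfap2a at 320. The rest of the list went the other way. Sox10, at 96.9, was lower in this array than in any other, and Ets1, at 1009.1, was below the WT EB arrays (1272.3 to 2167.7). The part of neural or neural crest cells in the Pou3f1 and Otx2 signal was not tested. For Foxd3, which neural crest cells also express, the neural crest sum ranged over 2854.3 to 4674.4 for WT EB arrays and over 1697.5 to 6140.3 for TKO EB arrays, above the 449 to 888.7 of ESC, while Foxd3 itself was lower in EB. The higher sums were carried by Snai2 and Ets1, which other cells also express. In WT cells these 2 of the 6 markers passed, and Sox10, Pax3, Tfap2b and Tfap2a had log2 changes of 0.01, 0.06, 0.51 and 1.22 that did not (limma, adjusted p = 0.984, 0.922, 0.483 and 0.0651). In TKO cells Tfap2a passed as well.

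Whether the genotypes differed in how far the genes fell was tested as an interaction, the TKO change minus the WT change. It was positive, that is, the fall was smaller in TKO cells or absent, for 8 of the 9 genes, and negative for Foxd3, at -0.81 ± 0.79. None passed in limma, where each of the 9 had an adjusted p of 0.975, and 0% of all 14365 genes were called. At an unadjusted p under 0.05 there were 522 of the 14365 genes, a share below that threshold, among them 2 of the 9. These were Fgf5, with a difference of 3.71 ± 1.02 (unadjusted p = 0.00301), and Pou3f1, with 2.12 ± 0.75 (unadjusted p = 0.0141), both from limma. Fgf5 was under the floor on all TKO ESC arrays, so no fall could be seen there. The interaction equals the TKO minus WT difference in EB minus that in ESC. For Fgf5 these were 1.08 and -2.63, and for Pou3f1 they were 1.10 and -1.02. The largest of the rest were Lefty2 at 3.27 ± 1.77, Nodal at 2.93 ± 1.57 and Tdgf1 at 2.65 ± 2.24. Without line Ta1-12 none of the 9 passed, and 0.0348% of all genes did. With errors of this size, neither equal falls nor differences of several log2 units can be set aside for these genes. Lefty1 (1.88 ± 1.16), Otx2 (1.99 ± 1.68) and Gdf3 (0.69 ± 0.94) were likewise unresolved.

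**Figure D3:**
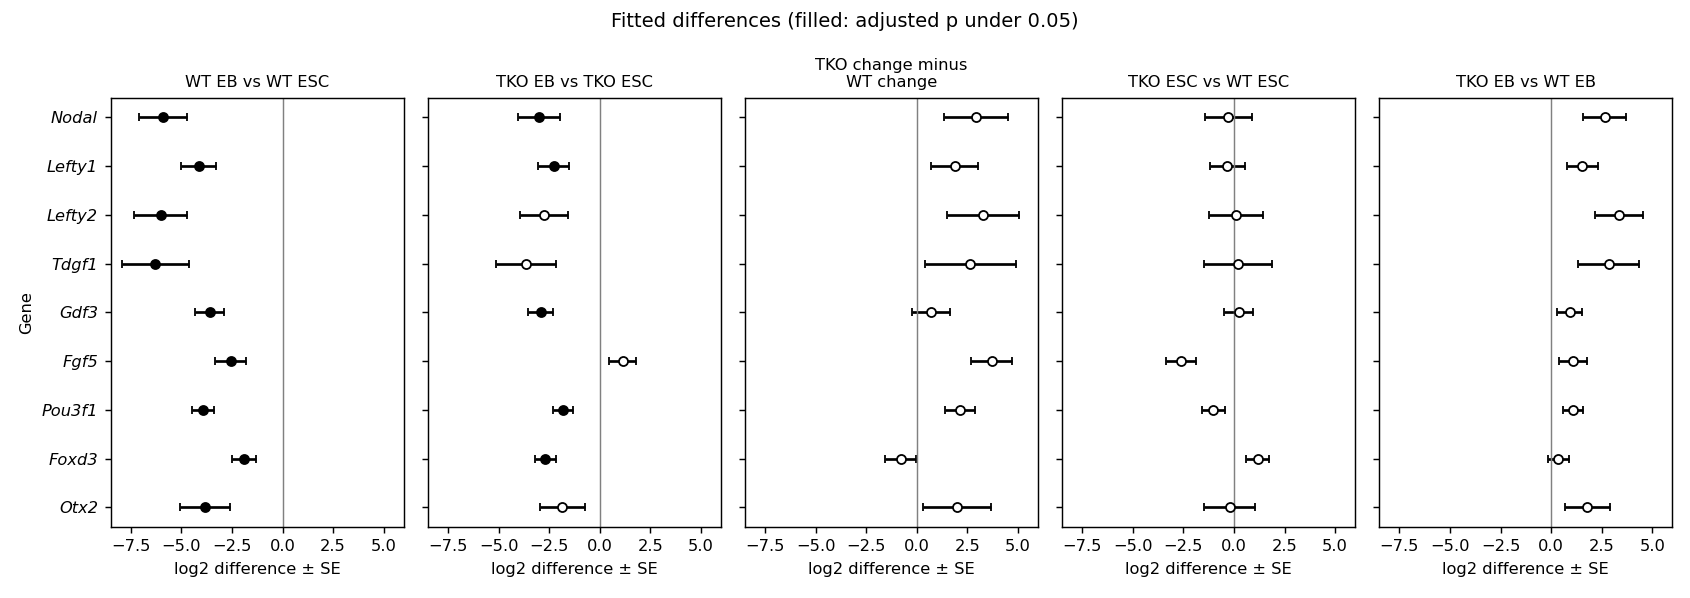
Fitted log2 differences with standard errors from limma for the 9 genes in the 5 comparisons, filled where the adjusted p is under 0.05. All 9 are filled in the WT panel of EB against ESC, 5 in the TKO panel, and none in the other 3.

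Comparing EB directly, all 9 genes had a higher mean in TKO than in WT, and the arrays of the groups overlapped for each of them. The groups were apart for 3.88% of all genes, 3.05% with TKO lower. The log2 difference was 3.36 ± 1.18 for Lefty2 (limma, adjusted p = 0.303), 2.65 ± 1.04 for Nodal (0.317) and 2.84 ± 1.49 for Tdgf1 (0.388). For the others it ran from 0.36 ± 0.53 for Foxd3 (0.758) to 1.78 ± 1.12 for Otx2 (0.461). In limma 0% of genes were called, 2034 of the 14365 had an unadjusted p under 0.05, and 3 of these were Nodal, Lefty2 and Pou3f1. The second probe set of Pou3f1, under the floor on most EB arrays, gave 0.053 ± 0.505 (limma over all probe sets that passed, adjusted p = 0.972). The EB array of Ta1-12 lay below every WT EB array for Tdgf1 and Otx2, and under the floor for Nodal and Lefty2. It was the lowest TKO EB array for these genes, so leaving it out raises their differences. Dutch, where loss of Rbl1 was not clear either, stays in the fits without Ta1-12. With single arrays left out in turn, the difference ran from 2.03 to 3.37 for Nodal and from 2.56 to 4.25 for Lefty2. For Tdgf1 it ran from 2.02 to 4.01, and for Otx2 from 1.11 to 2.82. Without line Ta1-12 the differences were 3.37 for Nodal (limma, adjusted p = 0.0489), 4.25 for Lefty2 (0.0233) and 2.82 for Otx2 (0.0314), so 3 of the 9 passed as higher in TKO EB. Of all 14365 genes, 7.66% passed there in either direction, 388 as higher and 713 as lower. Without the EB array of Ta1-12 alone, Tdgf1 passed too (4.01, limma, adjusted p = 0.0433). In that fit 9.9% of all genes passed in either direction, 480 as higher and 942 as lower. Both comparisons use the same TKO EB arrays as the one with TKO ESC above.

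In ESC, the differences of the Nodal pathway genes between genotypes were small beside their errors, and Fgf5 stood apart. TKO minus WT log2 differences were -0.29 ± 1.17 for Nodal, 0.23 ± 0.70 for Gdf3, 0.19 ± 1.67 for Tdgf1, -0.34 ± 0.86 for Lefty1, 0.10 ± 1.32 for Lefty2 and -0.21 ± 1.25 for Otx2. Those errors carry the spread of the EB lines, since the fit shares 1 variance per gene. Lefty1 and Lefty2 changed sign when single lines were left out, so they have no settled direction. Fgf5 was the only one of the 9 whose groups did not overlap, at 54.5 to 493.1 in WT and 6.8 to 30.5 in TKO. Groups did not overlap for 11.5% of all genes in this comparison, and for 6.84% with TKO lower. The difference of -2.63 ± 0.76 had an unadjusted p of 0.00425 and an adjusted p of 1 in limma, where 0% of genes were called. An unadjusted p under 0.05 was found for 394 of the 14365 genes, a share below that threshold, and among the 9 for Fgf5 alone. Its second probe set gave 67.7, 99.5 and 141.0 in WT and 41.7, 35.6 and 50.9 in TKO, again without overlap.

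Pou3f1 was lower in TKO ESC by 1.02 ± 0.56 on the log2 scale and Foxd3 higher by 1.17 ± 0.59, both with overlapping arrays and an adjusted p of 1 in limma. In both cases the WT lines were divided. J1 and R1 had high Fgf5 (286.3 and 493.1) and high Pou3f1 (1523.6 and 2434.7) with low Foxd3 (114.2 and 128.1). B21 was closer to the TKO lines for each, with Fgf5 at 54.5, Pou3f1 at 515.2 and Foxd3 at 318.2. The SD of log2 intensity between WT ESC lines was 1.66 for Fgf5 and 1.15 for Pou3f1, and 99.5% and 98% of all genes had a smaller one. For Nodal it was 0.17, with 39.6% of genes below it. The median was 0.65 over the 9 genes and 0.21 over all genes in WT ESC, and 0.36 and 0.19 in TKO ESC.

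**Figure D4:**
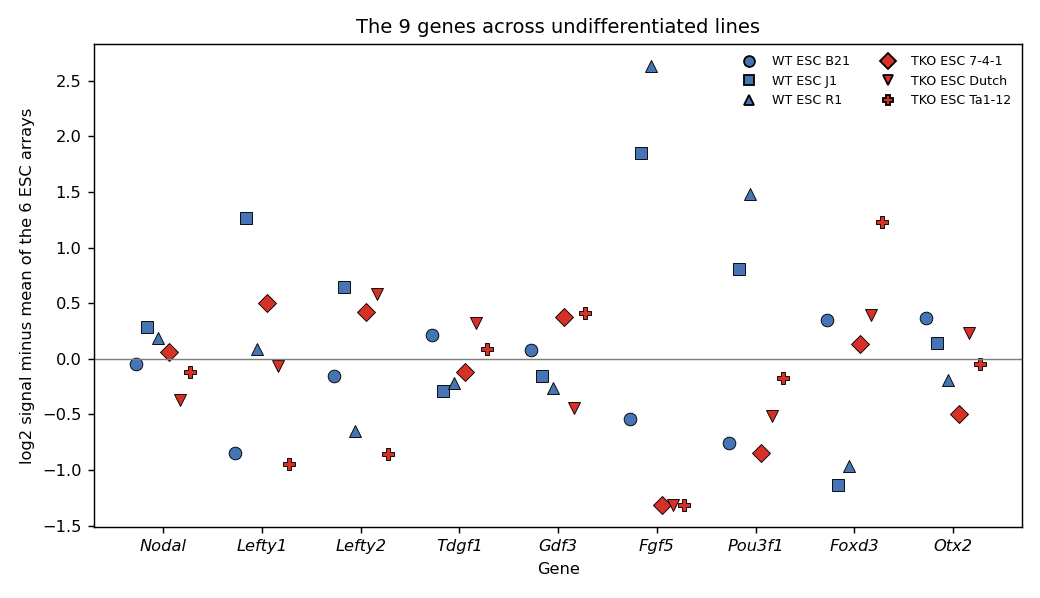
Log2 signal of each ESC array minus the mean of the 6 ESC arrays, for the 9 genes. WT ESC J1 and R1 stand above the other 4 arrays for Fgf5 and Pou3f1 and below them for Foxd3, while Nodal, Tdgf1 and Gdf3 lie within about 0.5 of the mean on every array.

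Other genes of the pathway were less uniform. Of 18 genes for ligand processing, receptors and transducers, 16 were tested, and 8 rose and 3 fell in WT cells (median log2 change 0.54, against 0.13 over all genes), with 7 up and 2 down in TKO cells (0.35 against 0.08). Over all genes, 26.2% rose and 17.4% fell in WT and 20.8% and 14.9% in TKO, so the falls here were near the background. Foxh1, the SMAD partner, fell by 3.97 ± 0.71 in WT (limma, adjusted p = 0.00126) and had a log2 change of -2.21 ± 0.64 in TKO (limma, adjusted p = 0.017). The name of its probe set marks it as shared between transcripts. The other Foxh1 probe sets are not marked so and went the same way in WT, from 227.4, 542.9 and 642.8 to 6.5, 4.7 and 5.9 and from 126.7, 361 and 377.5 to 9.8, 2.6 and 14.2. Tgif1, a corepressor of SMADs, fell in both, with log2 changes of -1.40 ± 0.27 and -0.78 ± 0.24 (limma, adjusted p = 0.00185 and 0.0243). Smad3 rose by 1.75 ± 0.25 in WT (limma, adjusted p = 0.00041) and by 1.84 ± 0.23 in TKO (limma, adjusted p = 0.000145). Furin, a convertase that cleaves the Nodal precursor, and Inhba, which encodes the activin A subunit, rose in both as well, Inhba by 3.40 ± 0.51 in WT.

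Of 8 further inhibitors, 7 were tested, and in each genotype 2 rose and none fell, near the 26.2% and 20.8% of all genes that rose. These were Fst, which encodes the activin-binding follistatin, with log2 changes of 4.03 ± 0.91 in WT and 3.52 ± 0.81 in TKO, and Pmepa1, which holds back SMAD activation, with 2.36 ± 0.42 and 1.32 ± 0.38 (limma, adjusted p from 0.00119 to 0.0162). Among germ layer targets, 6 of 8 were tested. The endoderm factors Foxa2 and Sox17 rose in WT, by 4.79 ± 0.81 and 5.03 ± 1.12, and in TKO, by 3.64 ± 0.72 and 3.47 ± 1.00, and Lhx1 rose in TKO by 1.23 ± 0.40 (limma, adjusted p = 0.0294) with a change of 0.10 ± 0.44 in WT. The other 3 passed in neither.

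Of 14 further primitive ectoderm and epiblast genes, 12 were tested, and 8 fell and none rose in WT (median -1.57), and 6 fell and 1 rose in TKO (median -1.04). Over all genes, 17.4% fell in WT and 14.9% in TKO. Dnmt3a counts among the falls in both genotypes, but its probe sets disagree, and its direction depends on which is read. One of the others went from 317.6, 547.7 and 445.2 in WT ESC up to 3002.2, 2947.8 and 1687.5 in EB. Tcf15, a factor linked to priming for differentiation, had log2 changes of -4.30 ± 0.55 in WT and -3.39 ± 0.49 in TKO. Etv4 and Etv5, targets of FGF signalling, had -2.90 ± 0.64 and -3.63 ± 0.77 in WT, and -3.81 ± 0.57 and -2.80 ± 0.69 in TKO. Pim2, a kinase gene, had -3.12 ± 0.49 and -1.49 ± 0.44. All of these passed (limma, adjusted p from 0.000224 to 0.018). Sall2 was the gene that rose in TKO, by 1.83 ± 0.36 (limma, adjusted p = 0.00222). The median of the 9 genes themselves was -3.94 in WT and -2.70 in TKO. No gene of these lists passed in the interaction or in the comparisons between genotypes.

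**Figure D5:**
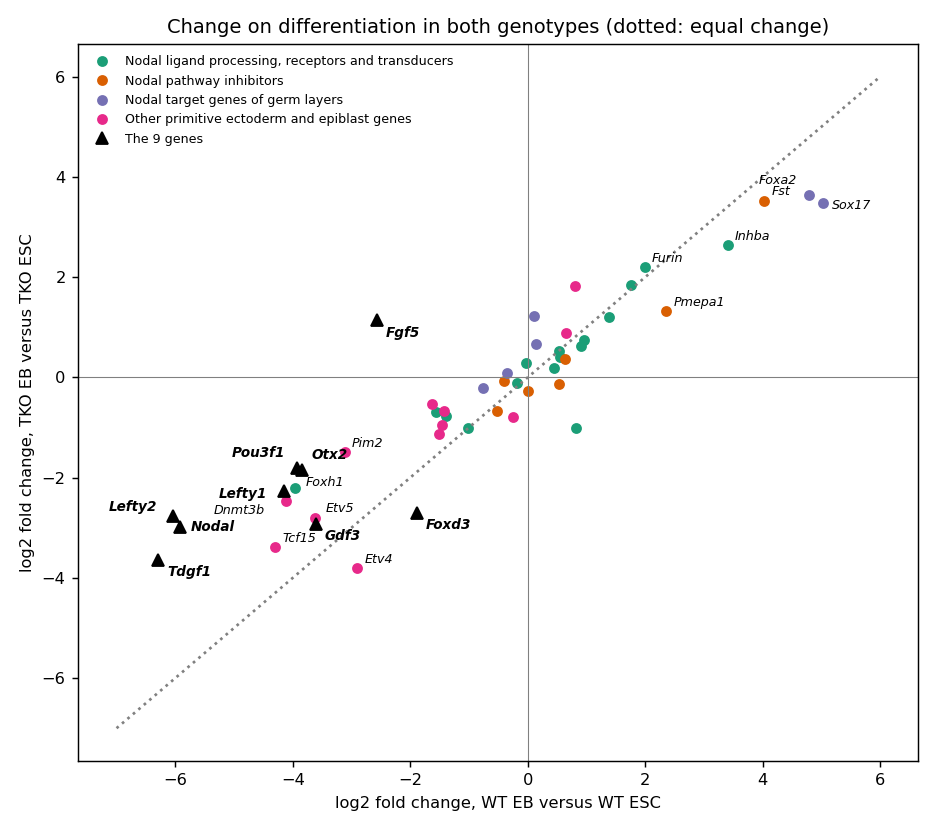
Log2 change on differentiation in WT (x axis) and TKO (y axis) for the 9 genes (triangles) and for the tested genes of 4 lists (dots). The dotted line marks equal change. Of the 9 genes, 8 lie above the line, Foxd3 lies below it, and Fgf5 alone falls in WT with a positive value in TKO.

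Across the 14 arrays, the log2 signal of Nodal was most like that of Utf1 and Pou5f1 (Pearson r = 0.994 and 0.992), that of Lefty2 like Pou5f1 and Nanog (0.982 and 0.981) and that of Tdgf1 like Zfp42 and Pou5f1 (0.983 and 0.98). Utf1, Zfp42 and Nanog are pluripotency genes. Symbols of the clone-name type were left out of this search. Gdf3 was most like Hspbap1 and Pnldc1 (both 0.988), Lefty1 like Trh (0.958) and Mif (0.932), and Foxd3 like Rrp1b (0.957) and Etv4 (0.953). Otx2 was closest to the mitotic genes Bub1b (0.979) and Ccnb2 (0.97), and Pou3f1 to Gng3 (0.954) and Pip5kl1 (0.943). Fgf5 had the weakest neighbours, F5 (0.841) and Syt13 (0.827). Within the 9, Nodal had an r of 0.974 with Lefty2 and with Tdgf1, while Fgf5 had one of 0.546 with Pou3f1 and 0.032 with Foxd3. The arrays are of 4 groups and share lines, and these values do not separate the difference between stages from the spread between TKO EB lines.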

How the data were processed

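Total RNA extracted with Trizol was labelled with biotin by Affymetrix's protocol, per the labels. The deposited values are linear intensity values per probe set that the authors had already summarised, from 0.596 to 25701.6. Background correction, scaling and genome build are not given in the sources used here. Array medians ran from 83.2 to 107.9, and values were used as deposited.

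Values under 32 were raised to 32 before log2. Of 45101 probe sets, 34958 had 1 gene symbol, 932 several and 9211 none, and 34754 matched a RefSeq table of GRCm38.p6. The probe set with the highest mean log2 value stood for its gene. Genes above the array's 40th percentile (51.3 to 64.4) on at least 3 arrays were tested, 14365 of 18194. limma 3.58.1 in R 4.3.3 fitted 1 mean per group over all 14 arrays (eBayes with trend). Adjustment was Benjamini-Hochberg over all genes within each of 5 comparisons, at a threshold of 0.05, and the number of arrays limits precision. The procedure was tested on simulated data. Figures were drawn with matplotlib 3.10.9.

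Groups come from the sample titles. The same lines were measured at both stages, so line names pair 6 lines. Deviations from group means of a line's ESC and EB arrays correlated at -0.078 to 0.196 over genes. The members, the gene lists and the tests were chosen with earlier results of these data known. Named genes were the 9 in every comparison, members of the fixed lists, and for each of the 9 the 2 genes with the highest Pearson r. That search left out symbols of the clone-name type, such as those that end in Rik or start with Gm and a number. Alternatives were other floors (16 and 64), a pseudocount of 16, quantile normalization, no filter, other uses of probe sets, fewer groups in the fit, line blocks, no line Ta1-12, and leaving out each array.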

Additional observations from a re-analysis of the deposited data

Results flagged for a closer look

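Of the 13 probe sets of the 9 genes, 1 had a single TKO EB array far from the other 4 by Dixon's criterion, on log2 values raised to at least 32. It was the second probe set of Pou3f1, with an intensity of 38.4 in line 7-4-1, where the other 4 arrays were under 32, at 18.2 in Dutch, 15.6 in 14-14-4, 13.8 in 2-55-2 and 4.9 in Ta1-12. With the other 4 arrays raised to the floor, any value above 32 would meet the criterion, so the floor sets this outcome and its size means little. The same line was also the highest for the brighter Pou3f1 probe set, at 338.7. For groups without such ties, chance gives about 1 case in 20. Groups of 3 arrays were not examined in this way.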

How the results depend on the processing

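The 9 falls in WT cells kept their sign under every alternative run, with 8 or 9 genes called, and 7 to 9 when single arrays were left out. In TKO EB versus TKO ESC, the 5 called genes became 3 with no filter, 3 with only the groups of the comparison and 2 without line Ta1-12, and 3 to 7 when single arrays were left out. In TKO EB versus WT EB, 0 became 3 without line Ta1-12 and 0 to 4 when single arrays were left out. The interaction and TKO ESC versus WT ESC stayed at 0 of the 9 in each fit. In TKO ESC versus WT ESC, Lefty1 turned from -0.34 to 0.049 without line Ta1-12 and ran from -0.848 to 0.208 when single arrays were left out, turning without WT ESC J1 (0.208) or TKO ESC Ta1-12 (0.049). Lefty2 ran from -0.199 to 0.551 around 0.10, turning without WT ESC R1 (-0.199), TKO ESC 7-4-1 (-0.088) or TKO ESC Dutch (-0.168). The cause was not tested.

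Among single genes, 592 of 630 values from leaving out 1 array kept sign and call, with 25 calls lost, 8 gained and 5 reversed. Of 468 values from other settings, 453 kept both, with 9 lost, 5 gained and 1 reversed. With line as a fixed replicate block on paired arrays, 8 of the 9 passed in WT and 6 in TKO, and genes called overall went from 5132 to 3161 in TKO cells. The random block had a consensus correlation of 0.032. Testing every probe set called 12556 in WT and 10897 in TKO, against 6260 and 5132 genes. Without line Ta1-12, 3068 genes were called in TKO cells, 1101 in TKO EB versus WT EB and 5 in the interaction, which reached 26 without the EB array of Ta1-12 alone. Quantile normalization moved the median change of all genes from 0.13 to -0.07 in WT and from 0.08 to -0.04 in TKO. Calls as higher and lower then numbered 3027 and 3478 in WT, against 3767 and 2493, and 2619 and 2768 in TKO, against 2987 and 2145. Signals under 32 have no order, which limits Fgf5, Foxd3, Nodal and Lefty2 in EB.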

Other observations

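Some genes of the fixed lists divided the WT ESC lines in the way of Fgf5 and Pou3f1, and others did not. J1 and R1 were the highest 2 of the 6 ESC arrays for 5 of 12 tested primitive ectoderm and epiblast genes, the lowest 2 for 2 and neither for 5. For ligand processing, receptors and transducers the numbers were 6, 1 and 9 of 16, and for pluripotency genes 0, 5 and 5 of 10. The same counts were not made over all genes tested, so whether these lists differ from other genes in this cannot be read from them. The genes named here were picked after their values were seen, and the division was not tested. Foxh1 was at 300.2 in WT ESC B21, 641.5 in J1 and 701.3 in R1, and at 377, 436.7 and 421.7 in TKO ESC 7-4-1, Dutch and Ta1-12. Dnmt3b was at 3476.4, 8867.2 and 9872.2 in the WT lines and at 4998.3, 4877.9 and 6822.2 in the TKO lines. Pim2, a kinase gene of the epiblast list, was at 780.2, 1553.2 and 2127.5 against 573.8, 646 and 601.7. Klf4, a factor of the naive pluripotent state, ran the other way, at 5985.9 in B21, 2527.4 in J1 and 1686.4 in R1, against 4281.7, 4506.9 and 4254 in the TKO lines. Etv4 of the epiblast list also ran the other way, at 599.5 in B21, 252.6 in J1 and 268.4 in R1, and so did Tcf15, at 1948.1, 1757.1 and 1666.9.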
